A study of Mus musculus with 8 samples.

Results

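The genes of the mouse mitochondrial genome (mtDNA) were followed in the livers of 8 male mice. All genes that the GENCODE M21 annotation of GRCm38 places on the mitochondrial chromosome were taken, which gave 37 of the 49585 genes counted: 13 mRNAs, 2 rRNAs and 22 tRNAs. Of these, 28 lie on the plus strand of the reference and 9 on the minus strand. The animals were fed a high-fat, choline-deficient (HFCD) diet for 3 months from 21 days of age, and RNA of the whole liver was sequenced from stranded total RNA libraries.

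Animals fell into 3 genotypes of Trp53, the gene of the tumor suppressor p53. The 3 LP245/+ animals were labelled Alb-CreTG, Trp53wm-R245W/+, and the 2 LPfl/+ animals Alb-CreTG, Trp53fl/+. Of the 3 LP+/+ animals, replicates 1 and 2 were labelled Alb-Cre0, Trp53fl/+ and replicate 3 Alb-Cre0, Trp53wm-R245W/+, so that these controls lacked Cre and carried a conditional allele that had not been recombined. The text of the study describes LP+/+ as carrying the Cre transgene, and the labels were followed here. Cre driven by the albumin promoter acts in hepatocytes and cholangiocytes, every other cell of the liver keeps its original Trp53 alleles, and the LPfl/+ and LP245/+ animals keep 1 wild-type allele in all cells. Because Cre was present in all LPfl/+ and LP245/+ animals and in none of the LP+/+ animals, the presence of Cre and the change of Trp53 cannot be told apart.

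Mitochondrial DNA is transcribed from both strands into long precursors, from which the rRNAs, mRNAs and tRNAs are cut, mostly at the tRNAs that sit between the other genes. The 2 rRNAs build the mitochondrial ribosome, the mRNAs encode core subunits of respiratory complexes I, III, IV and V, and the tRNAs serve mitochondrial translation. Hepatocytes are rich in mitochondria, and every other subunit of the respiratory chain, as well as the polymerase that reads mtDNA, is encoded in the nucleus.

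Libraries held between 26304526 and 31370714 counts. Hepatocyte markers (Alb, Apoa1, Ttr, Serpina1a, Cps1 and Tat) summed to between 101984 and 136407 counts at a library total scaled to 1000000 (CPM), and the muscle markers Ckm, Acta1 and Myh4 to at most 0.175. Trp53 had 234, 269 and 215 counts in the LP+/+ livers, 125 and 176 in the LPfl/+ livers, and 306, 291 and 190 in the LP245/+ livers. Cdkn1a, the p53 target that encodes the cell cycle inhibitor p21, was lower in LP245/+ than in LP+/+ by a log2 fold change of -2.91 (adjusted p = 0.0155, edgeR), with no overlap between these genotypes. Library numbers formed 2 series. The first held all LP245/+ livers and LP+/+ replicates 2 and 3, and the second held LP+/+ replicate 1 and both LPfl/+ livers. The LP245/+ and LPfl/+ livers thus shared no series, and between them genotype and series cannot be told apart.

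Several mtDNA genes have near-identical copies in the nuclear genome. A read that fits 2 places equally well is usually not assigned to a gene, and the sequences below show how little separates the genes from their copies. The first pair starts at base 1063 of mt-Co1, which encodes a core subunit of complex IV, at chrM:6390-6465 on the plus strand, with its copy in Gm29216 at chr1:24616113-24616188 on the minus strand (GRCm38, sequences of GENCODE M21 transcripts, 5′ to 3′). The second pair is the start of mt-Nd3, a complex I subunit, at chrM:9459-9534 on the plus strand, with its copy in Gm28438 at chr1:24613044-24613119 on the minus strand. Capitals mark the base that differs.
mt-Co1: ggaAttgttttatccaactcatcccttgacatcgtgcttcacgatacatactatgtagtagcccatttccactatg
Gm29216: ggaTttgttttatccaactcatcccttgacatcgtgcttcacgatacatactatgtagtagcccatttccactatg
mt-Nd3: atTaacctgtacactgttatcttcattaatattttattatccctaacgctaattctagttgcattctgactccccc
Gm28438: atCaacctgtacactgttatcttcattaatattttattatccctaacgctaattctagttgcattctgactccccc

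Over 483 aligned bases, mt-Co1 and Gm29216 differ by the single substitution A1066T, and over 345 bases mt-Nd3 and Gm28438 differ by T3C, with positions counted from the 5′ end of the mitochondrial gene. These copies belong to a block of 7 annotated pseudogenes on chromosome 1, from base 24611535 to base 24616197 (GRCm38, minus strand). Each rRNA and mRNA was cut into all windows of 76 bases, the read length, and each window was looked up in all nuclear transcripts. For mt-Co2, mt-Atp6, mt-Co3, mt-Nd3 and mt-Nd4l, between 97.8 and 99.9% of windows occurred exactly in a nuclear transcript. These 5 genes encode subunits of complexes IV, V and I, and the highest count of any of them in any liver was 399.

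Most genes with fewer copied windows had far more counts per length. In mt-Nd4, 61.5% of windows were copied, in mt-Co1 39.4%, in mt-Nd2 5.61% and in mt-Nd5 1.54%, while mt-Rnr1, mt-Rnr2, mt-Nd1, mt-Nd6 and mt-Cytb had 0 copied windows. Averaged over the 8 livers, mt-Rnr2 had 27638 CPM per kilobase, mt-Co1 13966, mt-Rnr1 9912, mt-Cytb 1582, mt-Nd1 1154, mt-Nd4 275 and mt-Nd6 174. On the same scale of level per length, mt-Co3 had 10.5, mt-Co2 4.71, mt-Nd3 1.77 and mt-Atp6 1.71. The exception was mt-Atp8, a complex V subunit, with 0% copied windows and at most 1 count. Its sequence overlaps that of mt-Atp6, and 233 bases of the chromosome 1 block, between Gm10925 and Gm28661, carry no annotated transcript and were not searched. How the counting treated reads with several matches was not tested.

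**Figure D1:**
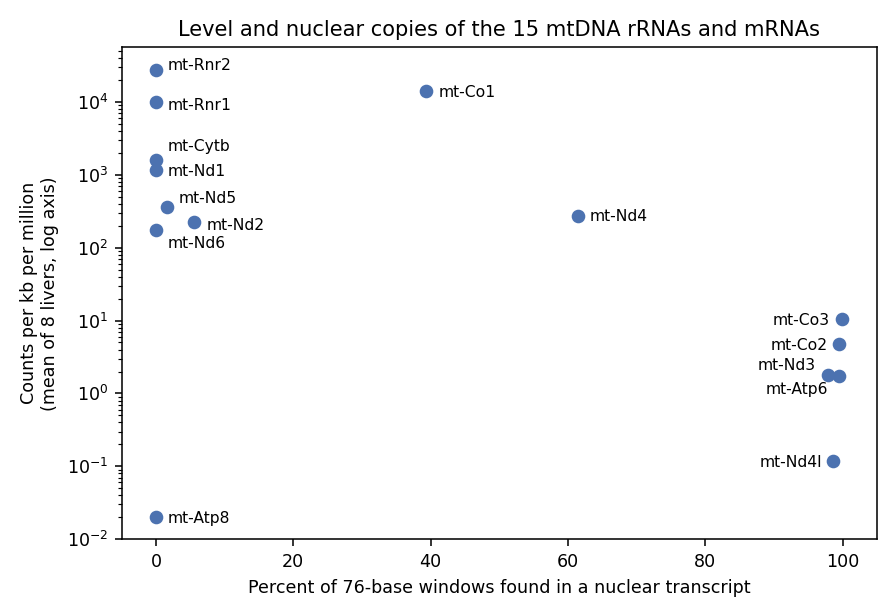
Level against nuclear copies for the 15 mtDNA rRNAs and mRNAs: the x axis gives the percent of 76-base windows of a gene found exactly in a nuclear transcript and the y axis CPM per kilobase, mean of 8 livers, on a log axis. The 5 genes with at least 97.8% of windows copied lie at or below 10.5, and mt-Atp8, at 0%, is the only gene without copied windows at that level.

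The tRNAs were nearly absent from the counts, apart from 1. All 22 are shorter than a 76-base read, and 19 have another gene on the same strand within a read length. Of the 22, 14 had 0 counts in every liver and 20 had at most 3 counts in every liver, a count of 3 being the floor used here. For a gene at 0, this floor allows up to between 9.56e-06 and 1.14e-05% of the counts of a liver. The next 2 sequences show the tRNA that was counted, mt-Tp, the proline tRNA at chrM:15356-15422 on the minus strand, and the only other tRNA above the floor, mt-Tm, the methionine tRNA at chrM:3845-3913 on the plus strand. Capitals mark the anticodon.
mt-Tp: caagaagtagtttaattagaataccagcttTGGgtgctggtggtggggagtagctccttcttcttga
mt-Tm: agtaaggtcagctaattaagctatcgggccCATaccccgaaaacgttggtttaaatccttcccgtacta

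Counts of mt-Tp were 1696, 1650 and 1542 in the LP+/+ livers, 1579 and 1862 in the LPfl/+ livers, and 1705, 1580 and 1969 in the LP245/+ livers. The genotypes overlapped, and mt-Tp made up between 99.2 and 99.9% of all tRNA counts of a liver. The nearest annotated gene on its strand lies 1216 bases away. Counts of mt-Tm were 2, 3 and 9 in the LP+/+ livers, 6 and 4 in the LPfl/+ livers, and 8, 4 and 5 in the LP245/+ livers, which overlapped as well.

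Counted together, the mtDNA genes took a larger share of the library in every LPfl/+ and LP245/+ liver than in any LP+/+ liver. The share was 6.90, 6.77 and 5.88% of all counts in the LP+/+ livers, 9.70 and 8.0% in the LPfl/+ livers, and 8.78, 7.57 and 9.70% in the LP245/+ livers. The lowest liver with Cre, LP245/+ replicate 2, lay above the highest LP+/+ liver, replicate 1. The LP+/+ mean was 6.52% ± 0.557 (SD, n = 3), that of LPfl/+ 8.85% ± 1.20 (SD, n = 2) and that of LP245/+ 8.68% ± 1.07 (SD, n = 3). In whole liver, a larger share of a cell type and more of this RNA per cell cannot be told apart.

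The share in LP245/+ was 2.17 percentage points above that of LP+/+, a ratio of 1.33 (exact permutation test, two-sided, p = 0.1, adjusted over 12 comparisons p = 0.24). LPfl/+ exceeded LP+/+ by 2.33 percentage points, a ratio of 1.36 (exact permutation test, two-sided, p = 0.1, adjusted p = 0.24). Both p-values are the smallest that 3 against 3 or 3 against 2 livers allow, so neither comparison could pass 0.05. LP245/+ and LPfl/+ overlapped, with a difference of -0.169 percentage points (exact permutation test, p = 0.9). Taking the 5 livers with Cre against the 3 without, a comparison added after the shares had been seen, the difference was 2.23 percentage points (exact permutation test, two-sided, p = 0.0357). That split was chosen because these livers did not overlap, and its p-value describes the split and supports nothing further. Within the first library series, LP245/+ exceeded LP+/+ by 2.36 percentage points, and within the second, LPfl/+ exceeded the single LP+/+ liver by 1.95.

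**Figure D2:**
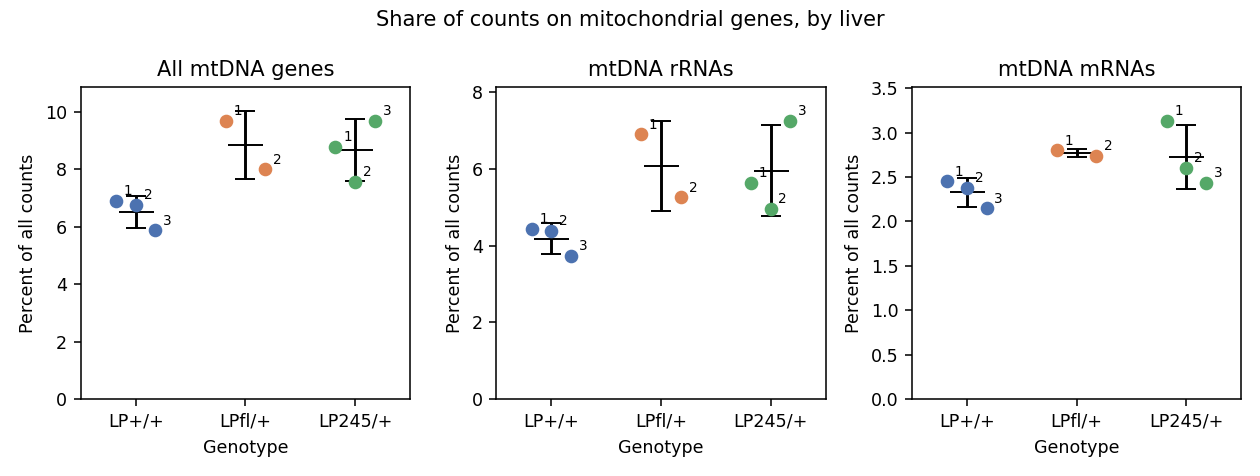
Percent of all counts on all mtDNA genes, on the 2 rRNAs and on the 13 mRNAs, with 1 point per liver numbered by replicate, a horizontal bar at the genotype mean and error bars of 1 SD (n = 3, 2 and 3). All LPfl/+ and LP245/+ livers lie above the LP+/+ livers for all genes and for the rRNAs, while for the mRNAs LP245/+ replicate 3, at 2.44%, lies just under LP+/+ replicate 1, at 2.45%.

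Most of the difference lay in the rRNAs. These took 4.45, 4.38 and 3.72% of counts in the LP+/+ livers, 6.89 and 5.25% in the LPfl/+ livers, and 5.64, 4.96 and 7.25% in the LP245/+ livers, and LP+/+ overlapped with neither of the other genotypes. The difference from LP+/+ was 1.77 percentage points in LP245/+ and 1.89 in LPfl/+ (exact permutation test, p = 0.1 for each, adjusted p = 0.24). The mRNAs took 2.45, 2.38 and 2.15% in the LP+/+ livers, 2.80 and 2.74% in the LPfl/+ livers, and 3.13, 2.60 and 2.44% in the LP245/+ livers. The mRNA share of LP245/+ overlapped with that of LP+/+ (difference 0.398 percentage points, exact permutation test, p = 0.2, adjusted p = 0.343), and that of LPfl/+ did not (0.443 percentage points, exact permutation test, p = 0.1, adjusted p = 0.24). How ribosomal RNA was depleted from these libraries, and whether mitochondrial rRNA was among it, is not given in the sources used here, and its part in the rRNA share was not tested.

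Livers also differed in other abundant RNAs. Alb took 7.81, 10.2 and 11.2% of counts in the LP+/+ livers, 8.38 and 8.25% in the LPfl/+ livers, and 8.05, 9.11 and 8.60% in the LP245/+ livers. With Alb left out of the total, a check added after the shares had been seen, the difference in mtDNA share was 2.28 percentage points for LP245/+ and 2.44 for LPfl/+, each against LP+/+. A list of genes that can take up large shares of such libraries (Rn7sk, Rpph1, Rmrp, Malat1, Neat1, Gm26917 and Lars2 of those tested) had a median log2 fold change of 0.22 in LP245/+ and of 0.22 in LPfl/+, each against LP+/+. With the counts of this list left out of the total, the difference in mtDNA share from LP+/+ was 2.22 percentage points in LP245/+ and 2.40 in LPfl/+. Erythroid markers summed to 546, 487 and 363 CPM in the LP+/+ livers, 242 and 354 in the LPfl/+ livers, and 418, 196 and 439 in the LP245/+ livers. Over all livers, macrophage markers summed to 176 to 269 CPM and lymphocyte markers to 15.7 to 28.2. Stellate markers ran from 256 to 321, endothelial from 248 to 395 and cholangiocyte from 3.75 to 7.40 CPM. Each of these latter lists overlapped between LP+/+ and both other genotypes. The part of these cell types was not tested.

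Among single genes, 0 of the 14 mtDNA genes that passed the filter on low counts differed between genotypes in any of the 3 comparisons. The cutoff was an adjusted p of at most 0.05 and a log2 fold change of 1 or more in either direction, with edgeR's quasi-likelihood test and adjustment over 16496 genes. It was passed by 0.00606% of all genes in LP245/+ against LP+/+ and by 0% in both other comparisons, and DESeq2 also called 0 mtDNA genes. The genes tested were both rRNAs, mt-Nd1 to mt-Nd6 without mt-Nd4l, mt-Co1, mt-Co2, mt-Co3, mt-Atp6, mt-Cytb and mt-Tp. In LP245/+ against LP+/+, 2 of the 14 were higher at an unadjusted p below 0.05, beside 3.55% of all genes, and 0 were lower, beside 2.38%. In LPfl/+ against LP+/+, 1 of 14 was higher, beside 4.22%, and 0 were lower, beside 2.67%. In LP245/+ against LPfl/+, 0 of 14 had such a p, beside 4.07% higher and 4.44% lower among all genes.

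Against LP+/+, most of the 14 had small positive differences. In LP245/+ against LP+/+, 12 had a log2 fold change above 0, beside 50.6% of all genes, and their median was 0.20 beside 0.00 for all genes. In LPfl/+ against LP+/+, 10 of 14 were above 0, beside 49.8%, with a median of 0.04. In LP245/+ against LPfl/+, all 14 were above 0, beside 50.8%, with a median of 0.10 and values from 0.01 to 0.41. These livers come from different library series, and with the series as a covariate 10 of 14 were above 0. That fit links LP245/+ and LPfl/+ only through LP+/+, of which only replicate 1 lies in the second series, so it rests on that liver. The count of 14 also depended on the scaling. On library totals 8 of 14 were above 0, with a median of 0.037, and mt-Rnr2, mt-Co1, mt-Co2, mt-Atp6, mt-Co3 and mt-Tp were below 0, while without LP245/+ replicate 1 it was 8 of 14 and without LPfl/+ replicate 2 it was 9 of 14. Relative to the mtDNA mRNA total, 6 of 14 were above 0 in LP245/+ and 3 of 14 in LPfl/+, each against LP+/+, and with the replicate number as a block 6 of 14 were above 0 in LPfl/+ against LP+/+. The comparisons share livers, and the genes share transcripts and libraries, so these counts are descriptions.

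**Figure D3:**
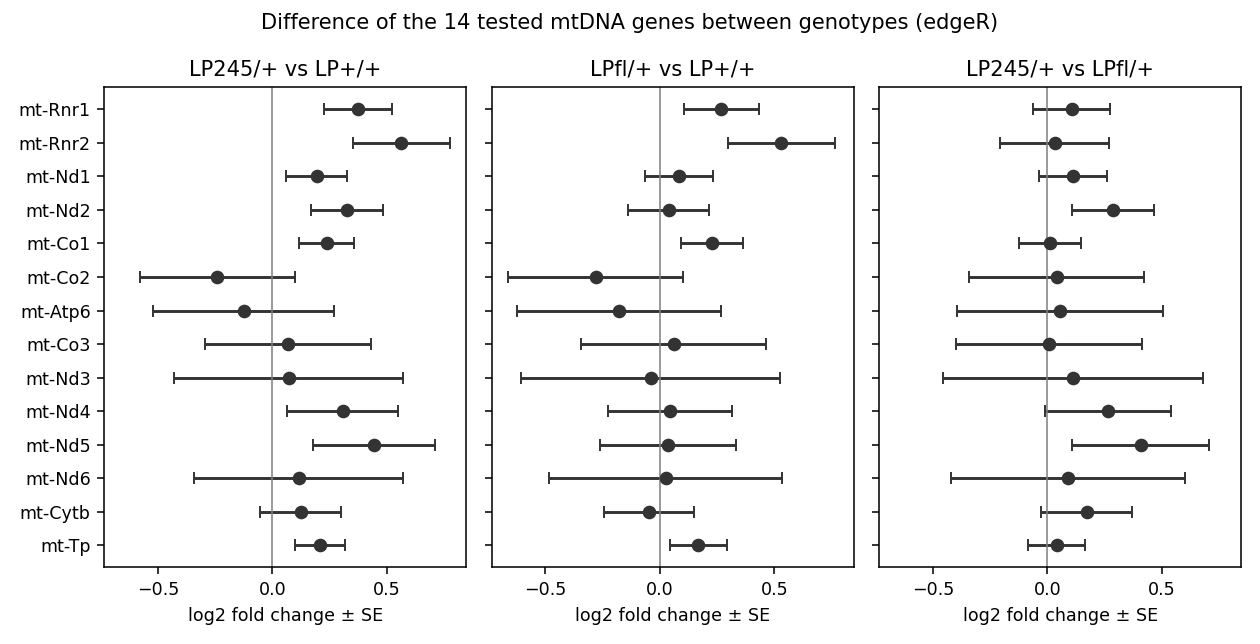
Log2 fold change (x axis) with its standard error for the 14 mtDNA genes past the filter, in genome order, for each of the 3 comparisons of genotypes. Both rRNAs stand furthest to the right against LP+/+, at 0.56 and 0.37 in LP245/+ and at 0.53 and 0.27 in LPfl/+ for mt-Rnr2 and mt-Rnr1, apart from mt-Nd5 at 0.44 in LP245/+.

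Among the rRNAs, mt-Rnr2, the large ribosomal RNA, was the second most counted gene of the series. Its counts were 1049464, 1054831 and 931818 in the LP+/+ livers, 1616680 and 1130811 in the LPfl/+ livers, and 1176527, 1151827 and 1846757 in the LP245/+ livers. LP245/+ replicate 3 and LPfl/+ replicate 1 stood highest, and counts in LP+/+ lay below those of both other genotypes. The log2 fold change was 0.56 (SE 0.21, adjusted p = 0.795) in LP245/+ and 0.53 (SE 0.23, adjusted p = 0.721) in LPfl/+, each against LP+/+ and by edgeR. Without LP245/+ replicate 3 the first was 0.30, and without LPfl/+ replicate 1 the second was 0.24.

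The small ribosomal RNA, mt-Rnr1, had 217841, 273930 and 236651 counts in the LP+/+ livers, 295854 and 253434 in the LPfl/+ livers, and 307674, 251138 and 318131 in the LP245/+ livers. LP+/+ replicate 2 lay above 1 liver of each other genotype, so the genotypes overlapped, and normalized counts did as well. As a percent of all counts, LP+/+ replicate 2 (0.903) lay below both LPfl/+ livers (1.07 and 0.962) but above LP245/+ replicate 2 (0.887). The log2 fold change was 0.37 (SE 0.15, adjusted p = 0.808, edgeR) in LP245/+ and 0.27 (SE 0.17) in LPfl/+, the latter 0.14 without LPfl/+ replicate 1. The ratio of mt-Rnr2 to mt-Rnr1 counts ran from 3.82 in LP245/+ replicate 1 to 5.81 in LP245/+ replicate 3, a span as wide within that genotype as over all livers.

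Among the mRNAs, mt-Co1 gave most of the counts, between 80.5 and 85.9% of mtDNA mRNA counts. Counts were 587251, 592655 and 554982 in the LP+/+ livers, 662975 and 608443 in the LPfl/+ livers, and 663588, 612571 and 624451 in the LP245/+ livers. Each liver with Cre lay above each LP+/+ liver. The log2 fold changes were 0.24 (SE 0.12, adjusted p = 0.831, edgeR) in LP245/+ and 0.23 (SE 0.13, adjusted p = 0.775, edgeR) in LPfl/+, the latter 0.15 without LPfl/+ replicate 1.

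On counts divided by DESeq2 size factors, 2 of 14 genes, mt-Rnr2 and mt-Co1, lay higher without overlap in LP245/+ than in LP+/+, beside 6.03% of all genes, and in LPfl/+ than in LP+/+, beside 11.9%. For both, all 5 livers with Cre lay above all 3 LP+/+ livers, which held for 2.36% of all genes tested. In the order LP+/+, LPfl/+, LP245/+, a line through the normalized counts of the 8 livers had a slope above 1 and an R² above 0.6 for 1 of 37 mtDNA genes, mt-Co1 (R² 0.615), beside 0.629% of all genes, and a slope below -1 with such an R² for 0 of 37, beside 0.506%. Without LP+/+ replicate 1, LP+/+ replicate 3 or LP245/+ replicate 1, the number of ascending lines was 0. Without LP245/+ replicate 2 it was 2. The methods of the study draw such lines through the 3 genotype averages. With lines through averages calculated here, 10 of 37 mtDNA genes had an ascending line, beside 7.18% of all genes. A descending line was found for 1, mt-Co2, beside 7.02%. Among genes past the filter on low counts, ascending lines numbered 10 of 14 beside 17.4%, and descending lines 1 of 14 beside 19%. Descending lines through averages numbered 3479 among all 49585 genes. The study reports far fewer descending genes, so its selection was not reproduced here, and the reason was not tested. The slope cutoff is 1 normalized count per step, which is small for highly counted genes. Lines through 3 averages also leave out the spread of livers. Among the 10, mt-Co3 had averages of 227, 235 and 236, with an SD of 143 in LP+/+. Over the 8 livers, R² was 0.0028 for mt-Co3, 0.0059 for mt-Nd6, also among the 10, and 0.060 for mt-Co2.

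For the complex I genes mt-Nd2, mt-Nd4, mt-Nd5 and mt-Nd6 and for mt-Cytb, single livers stood apart more than genotypes did. Counts of mt-Nd5 were 13982, 17275 and 20451 in the LP+/+ livers, 16482 and 16636 in the LPfl/+ livers, and 32192, 17947 and 14784 in the LP245/+ livers. The value of LP245/+ replicate 1 was the highest of all livers for mt-Nd2, mt-Nd4, mt-Nd5, mt-Nd6 and mt-Cytb. The log2 fold change of mt-Nd5 in LP245/+ against LP+/+ was 0.44 (SE 0.27, adjusted p = 0.839, edgeR), and 0.014 without LP245/+ replicate 1. Against LPfl/+ it was 0.41, and -0.0072 without that liver.

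The only mRNA on the minus strand, mt-Nd6, is read from the opposite promoter to the other mRNAs. Its counts were 1666, 2774 and 3326 in the LP+/+ livers, 2468 and 2467 in the LPfl/+ livers, and 4423, 2417 and 907 in the LP245/+ livers. LP245/+ thus held both the highest and the lowest liver. Relative to mt-Nd5, which overlaps its end on the other strand, mt-Nd6 reached 6.14% of the mt-Nd5 count in LP245/+ replicate 3 and between 11.9 and 16.3% in the other 7 livers. The same liver had the highest count of mt-Rnr2 and the lowest counts of the nuclear RNAs Rpph1 (26965 counts), Gm26917 (33716 counts) and Rmrp (726 counts). Other RNAs of the same list, Rn7sk (323268 counts), Malat1, Neat1 and Lars2, were not lowest there. Only LP245/+ replicate 1 had more Rn7sk. The part of these RNAs in the mtDNA values was not tested.

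Counts of mt-Cytb, the complex III subunit, were 46388, 58951 and 51997 in the LP+/+ livers, 47509 and 47840 in the LPfl/+ livers, and 66427, 50690 and 41957 in the LP245/+ livers. The genotypes overlapped. Counts of mt-Nd1 ran from 25991 to 35616, mt-Nd2 from 5958 to 9151 and mt-Nd4 from 7610 to 16575, and each of these overlapped between LP245/+ and LP+/+. In LP245/+ against LPfl/+, normalized counts of mt-Nd1 did not overlap, 1 of 14 genes beside 12.1% of all genes. As a percent of all counts they did overlap, with LP245/+ replicate 3 (0.103) below both LPfl/+ livers (0.111 and 0.115).

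**Figure D4:**
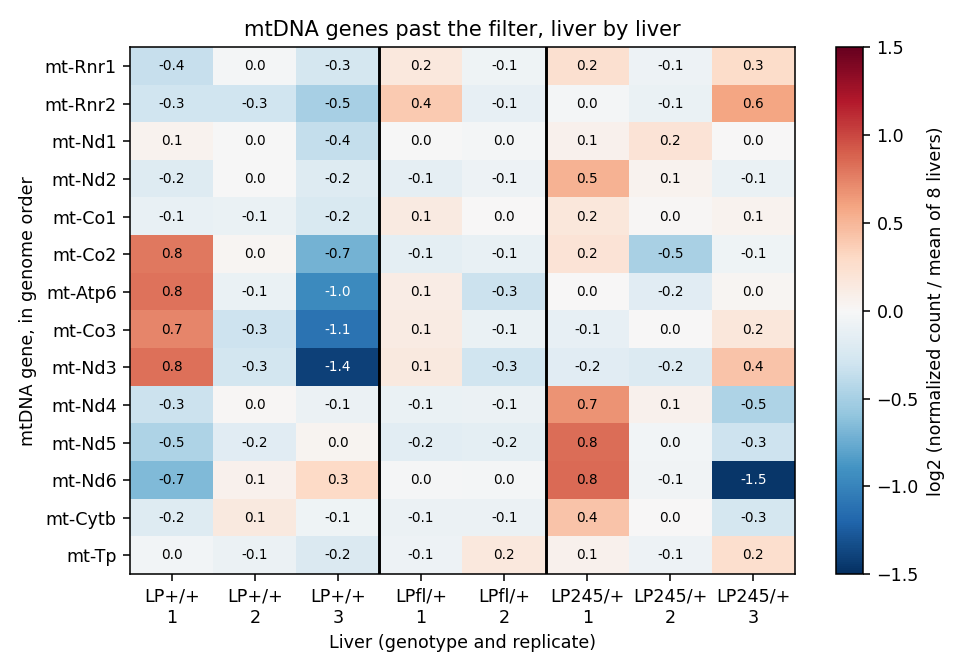
Normalized counts (counts divided by DESeq2 size factors) of the 14 mtDNA genes past the filter, each as log2 of its ratio to the mean of the 8 livers, with genes in rows in genome order and livers in columns. Both rRNAs are below or near their mean in LP+/+, mt-Nd4, mt-Nd5 and mt-Nd6 are highest in LP245/+ replicate 1, and the 4 genes from mt-Co2 to mt-Nd3 are highest in LP+/+ replicate 1 and lowest in LP+/+ replicate 3.

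The genes with nuclear copies were high and low in the same LP+/+ livers. In LP+/+ replicate 1, mt-Co2, mt-Atp6, mt-Co3 and mt-Nd3 had 162, 60, 399 and 32 counts. In LP+/+ replicate 3 they had 59, 18, 114 and 7 counts, and each was the lowest of all 8 livers. The 5 livers with Cre lay between these, with 64 to 101 counts for mt-Co2 and 206 to 257 for mt-Co3. Both extremes fell within LP+/+, and the log2 fold changes of these genes in LP245/+ against LP+/+ lay between -0.24 and 0.07, with standard errors from 0.34 to 0.50.

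The copies themselves stood highest in the liver in which these genes were lowest. Gm29216 had 702, 742 and 1856 counts in the LP+/+ livers, 750 and 742 in the LPfl/+ livers, and 862, 629 and 784 in the LP245/+ livers. Gm28437, the copy of mt-Co3, had 730, 715 and 1376 counts in the LP+/+ livers, 818 and 725 in the LPfl/+ livers, and 652, 700 and 937 in the LP245/+ livers. Gm28661, the copy of mt-Co2, had 452 counts in LP+/+ replicate 3 and between 181 and 231 in the other livers. Gm10925, the copy of mt-Atp6, had 210 counts in LP+/+ replicate 3 and between 108 and 148 in the other livers. Gm13340, a copy of mt-Co1 on chromosome 2 found by its sequence, had 961 counts in LP+/+ replicate 3 and between 423 and 516 in the others. Gm28438, the copy of mt-Nd3, and Gm28439, the copy of the first 876 bases of mt-Nd4, did not stand highest there, with 97 and 23 counts in that liver. That liver is the LP+/+ animal with the Trp53wm-R245W allele. All LP245/+ animals carry this allele as well, with Gm29216 at 862, 629 and 784 counts. The part of genetic background in these counts was not tested.

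**Figure D5:**
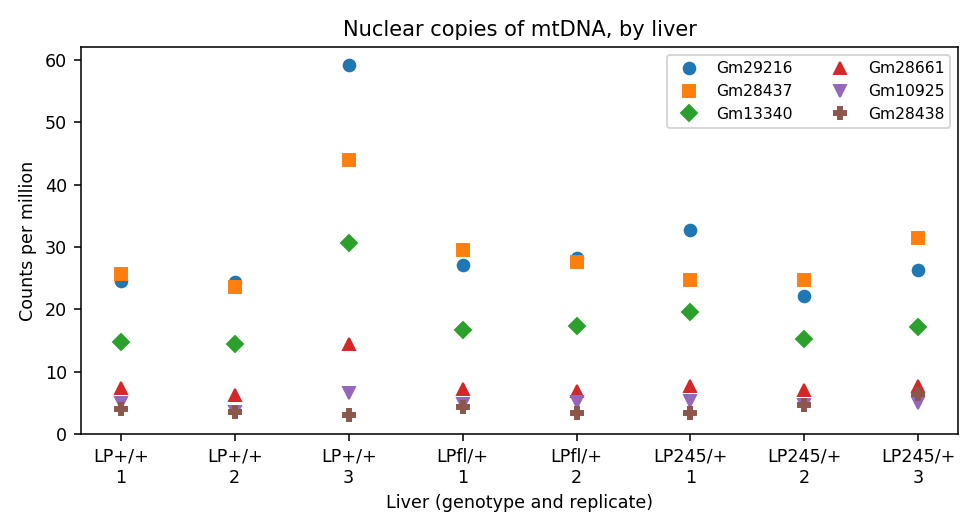
CPM of 6 annotated nuclear copies of mtDNA in each liver, with genotype and replicate on the x axis. Gm29216, Gm28437, Gm13340, Gm28661 and Gm10925 are highest in LP+/+ replicate 3 (1856, 1376, 961, 452 and 210 counts).

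Nuclear genes that make, process and modify mitochondrial RNA showed no difference past the cutoff. Of 56 such genes, 55 were tested and 0 passed it in any comparison. In LP245/+ against LP+/+, 33 of 55 had a log2 fold change above 0, beside 50.6% of all genes, with a median of 0.03, and 0 had an unadjusted p below 0.05, beside 5.93%. Polrmt, the mitochondrial RNA polymerase, had a log2 fold change of -0.22 (SE 0.15), Tfam, which binds and packages mtDNA, -0.06 (SE 0.10), and Tfb2m, the factor that starts transcription, 0.13 (SE 0.11).

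Lrpprc and Slirp, which together protect mitochondrial mRNAs, had log2 fold changes of 0.02 and 0.01 in the same comparison. Polg, the mtDNA polymerase, and Twnk, the helicase of mtDNA replication, had -0.03 and -0.07. Ppargc1a, a coactivator of mitochondrial biogenesis, had 0.08, and its relative Ppargc1b, at 0.40 (SE 0.22), was the highest of the list. Gtpbp3, which takes part in the modification of mitochondrial tRNAs, was the lowest at -0.36 (SE 0.18). In LPfl/+ against LP+/+, the values were -0.16 for Polrmt, -0.09 for Tfam, 0.04 for Tfb2m, -0.05 for Lrpprc, 0.13 for Slirp, -0.03 for Polg, -0.13 for Twnk and -0.05 for Ppargc1a, and the median of the list was -0.05, with 25 of 55 above 0. In that comparison 1 of 55 had an unadjusted p below 0.05, beside 6.89% of all genes. This was Mterf1a, of the mitochondrial transcription termination factor family, at 0.47 (SE 0.21, adjusted p = 0.721, edgeR), which is named after its value was seen and may share reads with its near copy Mterf1b. In LP245/+ against LPfl/+, they were -0.07, 0.03, 0.09, 0.06, -0.13, -0.01, 0.05 and 0.12 in the same order of genes, and the median was 0.04, with 35 of 55 above 0 and 0 with an unadjusted p below 0.05, beside 8.51%.

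Most nuclear partners of the mtDNA-encoded subunits had log2 fold changes slightly below 0 against LP+/+, and about as many lay above as below 0 in LP245/+ against LPfl/+. For subunits of complexes I to V, 75 nuclear genes were tested and 0 passed the cutoff in any comparison. In LP245/+ against LP+/+, 15 of 75 had a log2 fold change above 0, beside 50.6% of all genes, with a median of -0.07. In LPfl/+ against LP+/+, 12 of 75 did, beside 49.8%, with a median of -0.08, and in LP245/+ against LPfl/+ 40 of 75 did, beside 50.8%, with a median of 0.0053. The difference between these genes and the mtDNA genes was not tested. Atp5l, a complex V subunit, was highest at 0.76 (SE 0.21, adjusted p = 0.795, edgeR) in LP245/+ against LP+/+, followed by Cox7a2 of complex IV at 0.09 (SE 0.13), and the complex I subunits Ndufa12 at -0.26 (SE 0.12) and Ndufc1 at -0.24 (SE 0.10) were lowest. A list of 6 genes that stand for mitochondrial mass had medians of -0.06, -0.09 and 0.05 in the 3 comparisons, and 0 of them passed the cutoff.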

How the data were processed

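RNA of 3 LP+/+, 2 LPfl/+ and 3 LP245/+ livers was sequenced with paired 76-base reads. The authors deposited raw counts per gene, made with STAR on GRCm38 and a GENCODE annotation whose release is not given in the sources used here. Identifiers were matched to GENCODE M21, which named 49326 of 49585 genes, left 259 unnamed and matched all 37 mtDNA genes with their version. The members and gene lists were chosen with earlier results of these data known. All mtDNA genes may be named, and of the nuclear lists 8 fixed genes, the extremes in LP245/+ against LP+/+ and the nuclear copies.

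Counts were tested with edgeR 4.0.16 (TMM, filterByExpr, 8 livers in 1 quasi-likelihood fit, Benjamini-Hochberg over 16496 genes) under R 4.3.3. The shares were compared by exact permutation tests, adjusted over 12 comparisons. DESeq2 1.42.0 gave size factors and an alternative test. Nuclear copies were found by exact match of 76-base windows and by blastn 2.17.0. The edgeR script was run on simulated data with fold changes larger than those of the mtDNA genes here. Its ability to find smaller differences was not tested. Livers are separate animals, and SDs and standard errors include the spread between them. The floor covers counting error only.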

Additional observations from a re-analysis of the deposited data

How the results depend on the processing

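The number of mtDNA genes past the cutoff was 0 in all 3 comparisons under DESeq2, other scalings, other filters, the 2 genotypes alone, no fold-change cutoff, the replicate block, the library series as a covariate and each liver left out, and so was that of the nuclear lists. Scaled on the mtDNA mRNA total, the median log2 fold change was -0.023 in LP245/+ and -0.15 in LPfl/+, each against LP+/+, and with the replicate block it was 0.21 in LP245/+ against LPfl/+ and -0.045 in LPfl/+ against LP+/+. In LPfl/+ against LP+/+, leaving out 1 liver gave medians from 0.024 to 0.19, the highest without LP+/+ replicate 1. Ascending lines numbered 0 on library totals, 10 on genotype averages (beside 7.18% of all genes), with 1 descending line, and 0 to 2 with 1 liver left out.

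The share of LP245/+ against LPfl/+ changed sign when the summed mtDNA count was a single feature in edgeR (log2 fold change 0.043), and ran from -1.02 to 0.678 percentage points with 1 liver left out, positive without LPfl/+ replicate 1 and without LP245/+ replicate 2. With 1 liver left out, the differences from LP+/+ lay between 1.49 and 3.18 percentage points for LPfl/+ and between 1.66 and 2.72 for LP245/+. Without the rRNAs they were 0.444 and 0.399. Same-numbered livers did not deviate together (r from -0.08 to 0.03), and not every liver correlated best with its own number. Under the replicate block the mean difference in share from LP+/+ was 2.17 percentage points for LP245/+ and 2.02 for LPfl/+.

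Of 795 single-gene values under an alternative, 83 changed sign, 26 of these moved by more than their standard error, and 0 passed the cutoff. Scaled on the mtDNA mRNA total, the 26 included mt-Nd1 (-0.029), mt-Cytb (-0.12) and mt-Tp (-0.017) in LP245/+ and mt-Nd1 (-0.10), mt-Nd2 (-0.15) and mt-Tp (-0.017) in LPfl/+, each against LP+/+. With the library series as a covariate they included mt-Co2 (0.22) and mt-Atp6 (0.44) in LP245/+ and mt-Co3 (-0.71) in LPfl/+, each against LP+/+. In LP245/+ against LPfl/+ this covariate gave mt-Rnr1 (-0.10), mt-Nd4 (-0.025), mt-Nd6 (-0.76) and mt-Cytb (-0.062). For LP245/+ against LP+/+, the covariate is nearly the same as leaving out LP+/+ replicate 1, the only LP+/+ liver of the second series. Without that liver mt-Co2 was also 0.22 and mt-Atp6 0.44, so these are not separate checks. With 1 liver left out, log2 fold changes in LP245/+ against LP+/+ ran from -0.54 to 0.22 for mt-Co2, -0.46 to 0.44 for mt-Atp6, -0.048 to 0.53 for mt-Nd4, 0.014 to 0.64 for mt-Nd5, 0.30 to 0.68 for mt-Rnr2, -0.55 to 0.51 for mt-Nd6 and -0.091 to 0.26 for mt-Cytb. In LPfl/+ against LP+/+ they ran from -0.58 to 0.18 for mt-Co2, -0.52 to 0.38 for mt-Atp6, -0.44 to 0.68 for mt-Nd3 and 0.24 to 0.75 for mt-Rnr2. In LP245/+ against LPfl/+ they ran from -0.22 to 0.32 for mt-Rnr2, -0.077 to 0.50 for mt-Nd4, -0.0072 to 0.62 for mt-Nd5, -0.56 to 0.50 for mt-Nd6 and -0.032 to 0.32 for mt-Cytb. Changes of sign beyond the standard error arose without LP+/+ replicate 1 for mt-Co2, mt-Atp6 and mt-Nd3. For mt-Rnr2 they arose without LP245/+ replicate 3, and for the others without LP245/+ replicate 1. Smaller changes of sign arose without other livers too, such as -0.20 for mt-Rnr2 in LP245/+ against LPfl/+ without LPfl/+ replicate 2. The causes were not tested. Precision is limited by 2 or 3 livers per genotype, and for the copied genes by their low counts.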
